A study of Mus musculus with 64 samples.

Results

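The response to corticosterone (CORT, the main glucocorticoid of mice) was described in the ventral hippocampus (vHPC) of male hMet mice. All 21088 genes of the deposited comparison were taken, out of 21114 genes in the 5 comparisons used here. The comparison sets 4 libraries of CORT-treated hMet males against 4 libraries of vehicle-treated hMet males by the labels, 8 of the 64 libraries of the series. Each library pooled RNA from 2 animals. The hMet mice, on C57BL/6, are heterozygous for the BDNF Val66Met variant, which replaces a valine by a methionine in the growth factor BDNF, and both the CORT and the vehicle group carry it. From 2 months of age the mice drank either CORT at 25 mg per liter in 1% ethanol or 1% ethanol alone for 6 weeks. The WT males, hMet females and WT females set beside them were also on C57BL/6, and WT mice lack the variant. These groups drank the same solutions from the same age for the same time. The dorsal hippocampus (dHPC) of hMet males was sequenced as well. The text of the series names 2 weeks in place of 6 and a note in the labels names 3 replicates in place of 4. Fitted by the authors with limma-voom, the table had 22 residual degrees of freedom, whereas 32 libraries in 8 groups leave the 24 of the dHPC tables, and which library or term accounts for this was not given in the sources used here.

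CORT acts in the brain through the mineralocorticoid receptor and the glucocorticoid receptor (GR), both ligand-activated transcription factors that are abundant in the hippocampus. GR binds DNA elements made of paired short repeats and raises transcription of genes such as Fkbp5, which feeds back on the receptor, and Fam107a, whose protein binds actin. The vHPC is the part of the hippocampus most often tied to emotional behavior and the control of the stress axis, and BDNF supports synapses there. Each gene has a mean expression over the vHPC libraries in log2 CPM (counts scaled to library size) and a log2 fold change of CORT over vehicle, which was read as positive where CORT was higher, as the tables do not name the direction. No values of single libraries were analysed here, which leaves the spread and the overlap between libraries unknown, and errors are limma's moderated standard errors (SE). A gene is said to have risen or fallen where its Benjamini-Hochberg adjusted p was under 0.05. The region label could be checked on mean levels: Trhr, a marker of the ventral dentate gyrus, averaged 4.07 log2 CPM in the vHPC and 0.60 log2 CPM in the dHPC, and Lct, a dorsal marker, averaged 4.08 log2 CPM in the vHPC and 6.33 log2 CPM in the dHPC, in separately normalised fits. Sex, genotype and treatment of the libraries could not be checked in this way.

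In hMet males 139 genes passed the adjusted threshold, of which 55 rose (0.261% of 21088) and 84 fell (0.398%). The genes that rose had a higher mean expression (median 6.26 log2 CPM) than the genes that fell (median 3.75 log2 CPM), and the median over all genes was 3.08 log2 CPM. Before adjustment, at the nominal threshold of 0.05 on the unadjusted p, 1967 genes (9.33%) were higher and 1894 genes (8.98%) were lower with CORT. With a fold change (FC) over 1.3 added, the definition of DEGs that the study states, 241 genes (1.14%) were higher and 806 genes (3.82%) were lower. At a p under 0.01 with the same fold change, 106 genes were higher and 387 were lower, 493 in all. Most of the DEGs were of low expression: 96 of the 241 higher DEGs and 340 of the 806 lower DEGs averaged at least 1 log2 CPM. The last gene inside the adjusted threshold was Mpeg1 (adjusted p = 0.0498) and the first outside it was Trim7 (adjusted p = 0.0502). With unmoderated standard errors the adjusted count was 60 genes. The tissue was homogenised whole, so that fewer cells of a type and less RNA per cell cannot be told apart in any of these values.

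**Figure D1:**
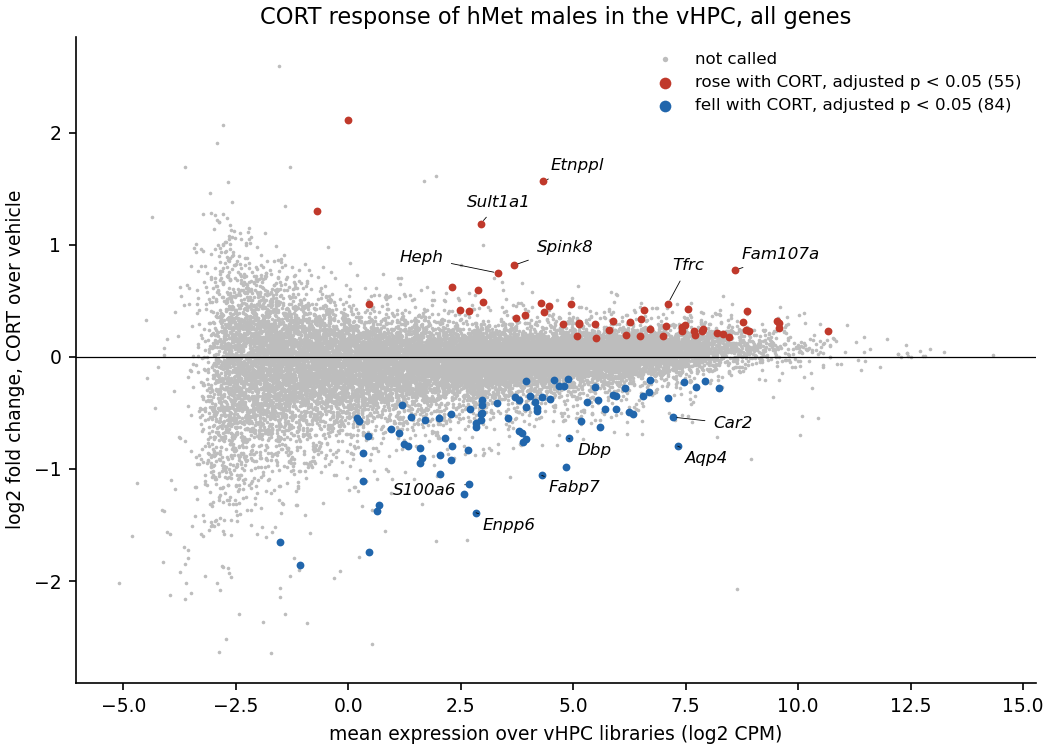
Log2 fold change of CORT over vehicle in hMet males of the vHPC (vertical axis) against mean expression in log2 CPM (horizontal axis), 1 point per gene. Red points are the 55 genes that rose and blue points the 84 genes that fell at an adjusted p under 0.05, and the red points lie further to the right, at a median of 6.26 log2 CPM against 3.75 log2 CPM.

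The promoters of 3 called genes are shown because each holds a motif tied to glucocorticoid or clock control. They are RefSeq sequence of GRCm38.p6, 5′ to 3′ on the strand of the gene, from 250 bases before the annotated start up to the start. Capitals mark the GR hexamer AGAACA, the GR element (AGAACA, then any 3 bases, then TGT, which contains the hexamer) and, for the clock gene, the E-box CACGTG, each searched on both strands. Fam107a lies at chr14:8309780-8310029 on the minus strand, Sult1a1 at chr7:126676419-126676668 on the minus strand and Bhlhe41 at chr6:145865421-145865670 on the minus strand. The Fam107a window lies wholly inside the gene as GENCODE annotates it (chr14:8296274-8318023), so its start is an internal one. Another RefSeq start of Fam107a gives the window chr14:8309778-8310027, which is not shown.
Fam107a: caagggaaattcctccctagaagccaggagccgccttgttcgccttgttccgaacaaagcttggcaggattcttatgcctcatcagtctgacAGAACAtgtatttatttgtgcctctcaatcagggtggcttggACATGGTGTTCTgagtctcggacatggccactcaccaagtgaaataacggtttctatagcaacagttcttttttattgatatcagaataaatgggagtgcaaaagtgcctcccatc
Sult1a1: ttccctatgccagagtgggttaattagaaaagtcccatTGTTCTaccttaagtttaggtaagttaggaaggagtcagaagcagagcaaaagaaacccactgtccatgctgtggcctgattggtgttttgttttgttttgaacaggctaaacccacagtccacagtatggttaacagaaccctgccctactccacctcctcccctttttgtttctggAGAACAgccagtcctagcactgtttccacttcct
Bhlhe41: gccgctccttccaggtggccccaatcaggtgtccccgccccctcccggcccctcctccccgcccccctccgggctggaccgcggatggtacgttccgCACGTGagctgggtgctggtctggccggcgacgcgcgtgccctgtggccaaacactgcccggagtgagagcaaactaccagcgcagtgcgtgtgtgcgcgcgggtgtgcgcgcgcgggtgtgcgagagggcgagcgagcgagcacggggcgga
Fam107a, which rose, holds 1 GR element at position -116 from the start, which includes a hexamer, and another hexamer at position -158. The GR element occurred in 52 of 13516 genes with a promoter in the RefSeq table, whose windows run on for 50 bases past the start (0.385%), in 1 of 42 genes that rose and in 0 of 65 genes that fell. The hexamer alone was more common, with 2137 of 13516 genes (15.8%), 9 of 42 genes that rose and 12 of 65 genes that fell. Sult1a1, which rose, holds 2 hexamers, at positions -212 and -34. The E-box was in 1455 of 13516 genes (10.8%), in 6 of 42 genes that rose and in 10 of 65 genes that fell, among them Bhlhe41. The clock motif D-box, TTATGTAA, was in 112 of 13516 genes (0.829%), in 0 of 42 genes that rose and in 2 of 65 genes that fell. The sterol element TCACCCCAC was in 88 genes (0.651%) and in none of the 42 and 65. A match is a description of the letters in the window and does not show binding.

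The genes of smallest p that rose act in astrocyte metabolism, iron uptake and actin or vesicle handling. Etnppl, which breaks down phosphoethanolamine and is an astrocyte enzyme in mouse brain (chromosome 3 of GRCm38 from 130617448 to 130637521), stood at 4.34 log2 CPM. Its log2 fold change was 1.57 ± 0.23 (SE), a fold of 2.96 (adjusted p = 0.00495). Heph, a ferroxidase that passes iron out of cells, rose by 0.75 ± 0.11 on the log2 scale (adjusted p = 0.00495), and Tfrc, the transferrin receptor that takes iron in, rose by 0.47 ± 0.08 (adjusted p = 0.00888). Spink8, a protease inhibitor gene of hippocampal pyramidal cells, rose by 0.82 ± 0.13 (adjusted p = 0.00495). Fam107a was the most abundant of these, at 8.60 log2 CPM, and rose by 0.77 ± 0.13 (adjusted p = 0.00948). Sult1a1, a sulfotransferase for phenols, had a log2 fold change of 1.19 ± 0.21 (adjusted p = 0.00982). These were folds of 1.71 for Fam107a and 2.28 for Sult1a1. Enzymes of amino acid breakdown were among the 15 leading genes, with Aass of the lysine pathway at a log2 fold change of 0.63 and Prodh of the proline pathway at 0.40. Acot11, which splits fatty acyl-CoA, had 0.47.

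Several leading genes of neurons rose as well, by 0.20 to 0.59 on the log2 scale. Exoc6b of the exocyst, which tethers vesicles, had a log2 fold change of 0.27 ± 0.05, and Snph, which docks mitochondria in axons, had 0.24 ± 0.04. Anks1b, a postsynaptic scaffold protein, had 0.20 ± 0.04. Ppm1e, a phosphatase that acts on CaM kinases, had 0.41 ± 0.08, and Kirrel2, an adhesion protein, had 0.59 ± 0.12. The 5 genes averaged between 2.89 and 8.88 log2 CPM, Kirrel2 being the lowest of them, and their adjusted p ranged from 0.0103 to 0.0176. When fold changes were centred on genes of like exonic length, an alternative chosen after seeing the data, Exoc6b and Anks1b lost their call (adjusted p = 0.0529 and 0.0958).

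The leading genes that fell included a clock output gene, glial genes and genes of dividing or newly formed cells. Dbp, a transcription factor that the clock drives through E-boxes (chromosome 7), averaged 4.90 log2 CPM. Its log2 fold change was -0.73 ± 0.11 (adjusted p = 0.00495), a fold of 0.604. Among astrocyte genes, Aqp4, the water channel of astrocyte endfeet, fell by 0.80 ± 0.14 on the log2 scale (adjusted p = 0.00955), and Fabp7, a fatty acid carrier of astrocytes and neural progenitors, fell by 1.06 ± 0.19 (adjusted p = 0.00982). Enpp6, a marker of newly formed oligodendrocytes, had the largest fall of the 15, a log2 fold change of -1.39 ± 0.25 (adjusted p = 0.0103) or a fold of 0.381. Car2, the carbonic anhydrase of oligodendrocytes, fell by 0.54 ± 0.09 at a mean level of 7.21 log2 CPM (adjusted p = 0.00948). S100a6, a calcium-binding protein, had a log2 fold change of -1.13 ± 0.19 (adjusted p = 0.00888). Nuf2 of the kinetochore, which chromosomes need in mitosis, had -0.95 ± 0.17 at a mean level of 1.59 log2 CPM (adjusted p = 0.00982).

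The other leading genes that fell act in lipid handling, glycogen control and signaling. Elovl5, which lengthens polyunsaturated fatty acids, had a log2 fold change of -0.34 ± 0.06, and Abhd3, a phospholipase, had -0.38 ± 0.07. Ppp1r3g, which guides a phosphatase to glycogen, had -1.04 ± 0.19. Blnk, an adaptor protein of B cells and macrophages, had -0.90 ± 0.18, and Rasgrp3, which activates Ras, had -0.68 ± 0.13. Ddah2 had -0.63, Aif1l had -0.51 and Jpt2 had -0.51. Adjusted p of these 8 genes ranged from 0.00982 to 0.0158. Outside the leading genes, and named after their values were seen, the genes that fell included the chemokines Ccl6 (log2 fold change -1.10) and Ccl9 (-1.37), the lysosomal protein Laptm5 (-0.57), the macrophage perforin Mpeg1 (-0.98) and the NADPH oxidase subunit Ncf1 (-0.72). Each of the 5 is known from macrophages or microglia in mice.

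**Figure D2:**
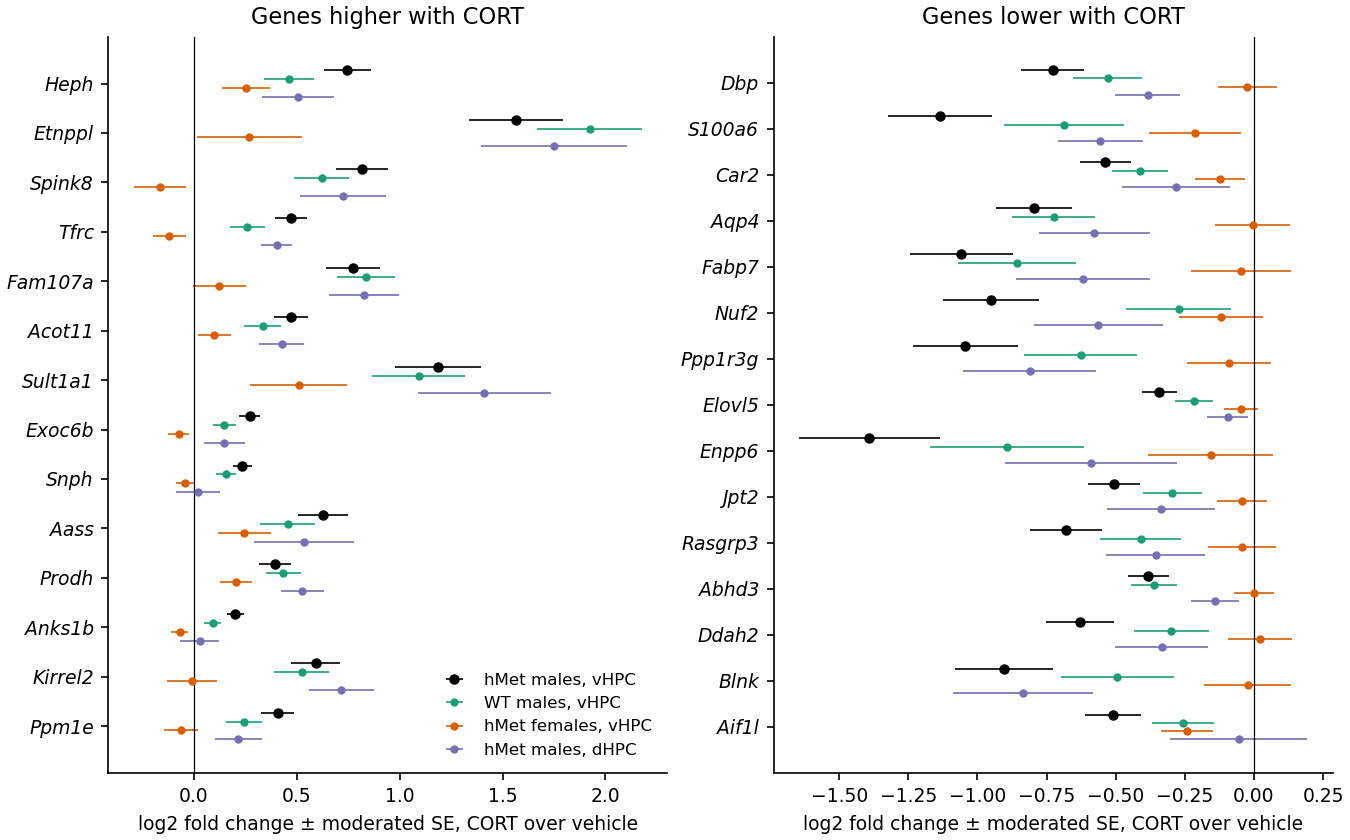
Log2 fold change of CORT over vehicle with moderated SE (horizontal axis) for 14 of the genes of smallest p that rose (left) and 15 that fell (right) in hMet males of the vHPC (black), beside WT males of the vHPC (green), hMet females of the vHPC (orange) and hMet males of the dHPC (purple). Etnppl stands at 1.57 in hMet males of the vHPC, against 1.92 in WT males, 0.27 in hMet females and 1.75 in the dHPC of hMet males.

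Among 25 genes known to be induced by glucocorticoids in various tissues, 3 rose and 0 fell, against 0.261% and 0.398% of all genes. At the nominal threshold 7 were higher and 3 were lower, against 9.33% and 8.98% of all genes. Members were chosen with earlier results of these data known, so the list is no independent check. The list had a median log2 fold change of 0.09, and that of all genes was -0.01. The 3 that rose were Fam107a, Sult1a1 and Gpd1, a glycerol phosphate dehydrogenase with a log2 fold change of 0.41 ± 0.09 (adjusted p = 0.0253). Fkbp5, the receptor's co-chaperone, had 0.49 ± 0.12 and stood just outside the threshold (adjusted p = 0.0506), as did Plin4, a lipid droplet protein, with 1.62 ± 0.39 (adjusted p = 0.052). Tsc22d3, a classic target that encodes GILZ, had -0.10 ± 0.16 (adjusted p = 0.782). The targets thus ranged from -0.27 to 1.62. None of the 14 receptor and chaperone genes passed the adjusted threshold, while 5 were higher and 1 was lower at the nominal threshold. That list was of high expression (median 6.46 log2 CPM), and 17.8% of all genes between 5 and 7 log2 CPM were higher by the same measure. Nr3c1, which encodes GR, had a log2 fold change of -0.13 with a 95% interval from -0.31 to 0.05, and Nr3c2, which encodes the mineralocorticoid receptor, had 0.15 with an interval from -0.13 to 0.43. The metallothioneins, zinc-binding proteins that glucocorticoids induce in mice, had log2 fold changes of 0.32 (Mt1), 0.17 (Mt3) and 0.12 (Mt2), at adjusted p of 0.0749, 0.133 and 0.701.

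Of 23 clock and clock output genes, 2 fell and 0 rose, against 0.398% and 0.261% of all genes, and 7 were lower and 1 was higher at the nominal threshold, against 8.98% and 9.33% of all genes. Beside Dbp, the repressor Bhlhe41 fell (log2 fold change -0.26 ± 0.06, adjusted p = 0.0496). Arntl, the partner of CLOCK in the core loop, had 0.07 ± 0.07 (adjusted p = 0.623). The list median was -0.06, and -0.09 after centring on genes of like exonic length.

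Microglial genes were lower with CORT nearly throughout their list. All 22 measured members had a negative log2 fold change and 21 were lower at the nominal threshold, against 8.98% of all genes, with a median of -0.54 and a range from -1.65 to -0.22. Only Itgam, the CR3 integrin chain, fell at the adjusted threshold (log2 fold change -0.83 ± 0.18, adjusted p = 0.0321). The defining genes Cx3cr1, the fractalkine receptor, and P2ry12, a purine receptor, had -0.39 ± 0.12 (adjusted p = 0.0988) and -0.59 ± 0.17 (adjusted p = 0.0858). Interferon and antigen presentation genes had 26 of 27 members below 0, 6 of them at the nominal threshold, and a median of -0.33, but no member passed the adjusted threshold. Cd74, the chaperone of MHC class II, had -1.31 ± 0.58 and Gbp2, a guanylate-binding protein, had -0.70 ± 0.28.

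The oligodendrocyte lineage was lower as well, except for the genes that define its precursors. Of 26 myelin and mature oligodendrocyte genes, 24 were below 0. At the nominal threshold 13 were lower and 0 were higher, against 8.98% and 9.33% of all genes. Car2 alone fell at the adjusted threshold. The list median was -0.46. Mbp, which encodes a main protein of myelin, had a log2 fold change of -0.54 ± 0.19 (adjusted p = 0.13). Of 14 precursor genes, 8 were lower at the nominal threshold and the median was -0.29. Gpr17, a receptor of precursors about to differentiate, fell by 0.62 ± 0.12 (adjusted p = 0.0195). Pdgfra and Cspg4, which define precursors, had 0.01 ± 0.09 and -0.01 ± 0.09. The difference between stages was not tested.

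Astrocyte genes moved both ways. Of 24 members, Aqp4, Fabp7 and S100b fell and Aldoc rose, and the median was -0.08. At the nominal threshold 7 members were lower and 5 were higher, against 8.98% and 9.33% of all genes. The list was of high expression (median 7.32 log2 CPM), and above 7 log2 CPM 5.22% of all genes were lower and 33.0% were higher by the same measure. S100b, a calcium-binding protein, had a log2 fold change of -0.35 ± 0.08 (adjusted p = 0.0448), while Aldoc, the brain aldolase, had 0.26 ± 0.06 (adjusted p = 0.0401). Gfap, the intermediate filament of astrocytes, had -0.72 ± 0.23 (adjusted p = 0.105). Of 22 endothelial genes 14 were below 0, with a median of -0.09. At the nominal threshold 5 were lower and 2 were higher, against 8.98% and 9.33% of all genes. The list had 1 member that rose, the lipid transporter Mfsd2a of the blood-brain barrier (0.48 ± 0.11, adjusted p = 0.0466), while Pecam1 had 0.06 ± 0.11. Of 15 pericyte and smooth muscle genes 2 were lower at the nominal threshold, against 8.98% of all genes, among them Notch3 (-0.46 ± 0.13, adjusted p = 0.0854).

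Genes of other tissue that a dissection can carry were measured beside these. Of 17 choroid plexus genes 16 were below 0 with a median of -0.52, but none reached the nominal threshold. Ttr, the most typical of them, had a log2 fold change of -2.07 with a standard error of 2.15. Of 14 ependymal genes 13 were below 0 and of 17 meningeal fibroblast genes 11 were above 0, again with none at the nominal threshold. Thalamic and striatal genes had 18 of 20 members below 0 and a median of -0.43. At the nominal threshold 3 of them were lower, against 8.98% of all genes. The list had a median level of 2.59 log2 CPM, and 11.7% of all genes between 1 and 3 log2 CPM were lower by the same measure. Penk had -0.79 ± 0.35 and Plekhg1 had -0.36 ± 0.16. The 5 globin and red cell genes were all above 0, with a median of 0.56 and none at the nominal threshold, though near-identical globin genes make their counts uncertain. Hippocampal neuron genes were on the opposite side, with 21 of 24 members above 0 and a median of 0.30, and Spink8 alone rose. At the nominal threshold 5 were higher, against 9.33% of all genes. Their list was of high expression (median 6.08 log2 CPM), and 17.8% of all genes between 5 and 7 log2 CPM were higher by the same measure. Prox1 of dentate granule cells had 0.44 ± 0.24. These fold changes belong to the same comparison as the glial and neuronal results, and their part in those results was not tested.

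**Figure D3:**
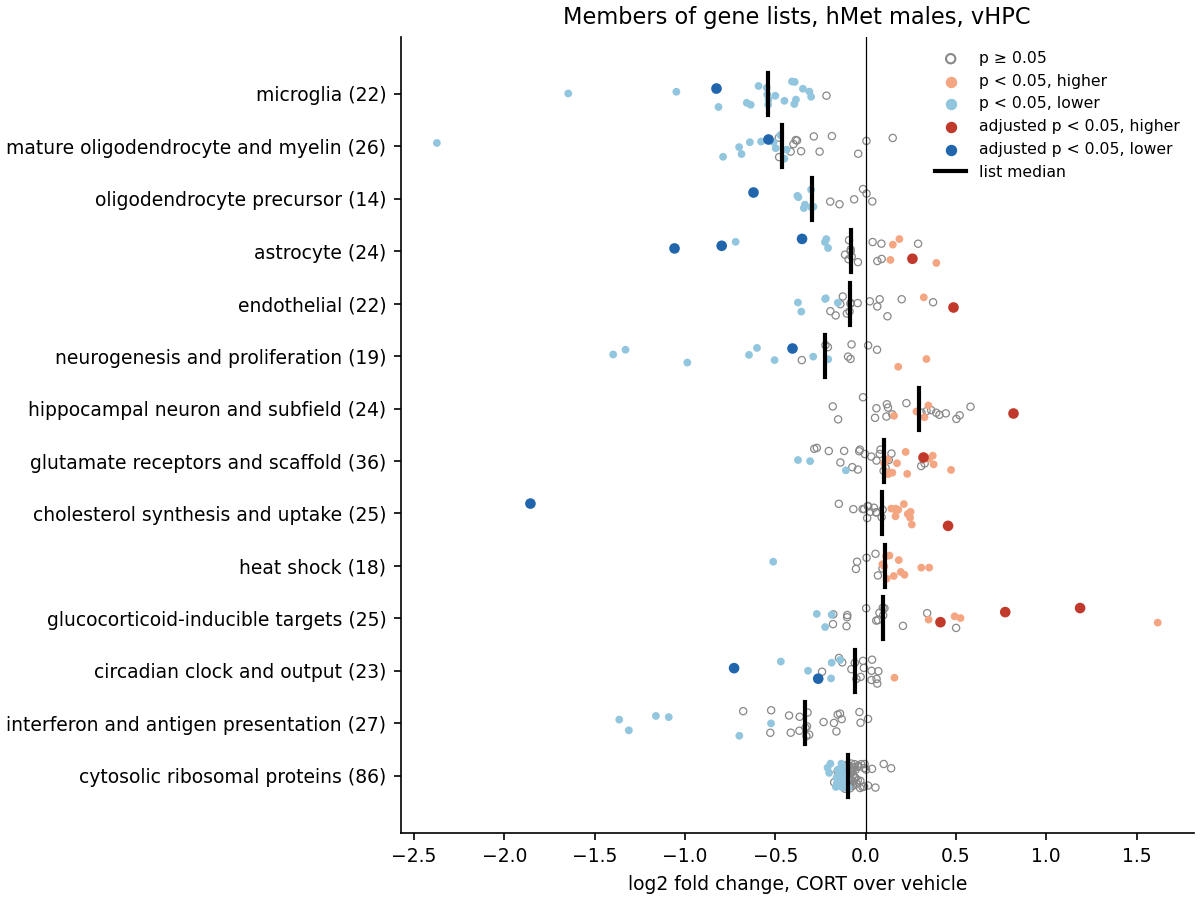
Log2 fold change of CORT over vehicle in hMet males of the vHPC (horizontal axis) for every measured member of 14 gene lists, 1 row per list with the number of members in brackets. Open circles did not reach the nominal threshold, pale points did, dark points passed the adjusted threshold, and bars are list medians, from -0.54 for microglia to 0.30 for hippocampal neuron genes.

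Genes of synapses were mostly above 0. Gria2, an AMPA receptor subunit that sets calcium entry, rose (log2 fold change 0.32 ± 0.08, adjusted p = 0.0487) at a mean level of 9.53 log2 CPM. Gria1 had 0.38 ± 0.10 (adjusted p = 0.0655). Of 36 glutamate receptor and scaffold genes 13 were higher and 3 were lower at the nominal threshold, against 9.33% and 8.98% of all genes, with a median of 0.10. The list was of high expression (median 6.79 log2 CPM), and 33.0% of all genes above 7 log2 CPM and 17.8% of those between 5 and 7 log2 CPM were higher by the same measure. Centred on genes of like exonic length, its median was 0.04. For 26 genes of GABA receptors and interneurons the counts were 5 and 3, and Npy, a peptide of interneurons, had -0.35 ± 0.12 (adjusted p = 0.112). Of 22 stress neuropeptides and their receptors 16 were below 0, with a median of -0.21, and 3 were lower and 2 were higher at the nominal threshold. Among them Npy5r rose (0.42 ± 0.09, adjusted p = 0.0342), while Crh, which drives the stress axis, had -0.35 ± 0.22 at a low level of 0.18 log2 CPM. Bdnf, the gene that carries the variant, had a log2 fold change of 0.45 with a 95% interval from 0.20 to 0.69 (adjusted p = 0.071). Since the strand setting of the counting was not given, reads of its antisense gene cannot be told apart from its own. Ntrk3, the receptor for the related NT-3, had 0.36 ± 0.11 (adjusted p = 0.0864). Activity-induced genes had 2 of 21 members higher at the nominal threshold, with Nr4a3 at 0.43 ± 0.12 and Fos at -0.28 ± 0.54.

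Newborn neuron and proliferation genes were mostly lower, with a median of -0.22. At the nominal threshold 9 of 19 were lower and 2 were higher, against 8.98% and 9.33% of all genes. Sox4, a factor of immature neurons, fell by 0.41 ± 0.09 (adjusted p = 0.0321), and Dcx, which marks migrating young neurons, had -0.21 ± 0.09 (adjusted p = 0.209). Of the 19, 12 averaged at least 1 log2 CPM.

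Genes of cholesterol synthesis and uptake were mostly above 0. Of 25 members 11 were higher and 1 was lower at the nominal threshold, against 9.33% and 8.98% of all genes, and the median was 0.09. Stard4, which carries sterol in the cytosol, had a log2 fold change of 0.26 ± 0.07 (adjusted p = 0.0625) and Nsdhl, an enzyme of the late pathway, had 0.14 ± 0.06. Heat shock genes had 11 of 18 higher and 1 lower at the nominal threshold, against 9.33% and 8.98% of all genes, with a median of 0.11. Their list was of high expression (median 6.48 log2 CPM), and 17.8% of all genes between 5 and 7 log2 CPM were higher by the same measure. Hspa4, a large chaperone, had 0.18 ± 0.05 (adjusted p = 0.0582), whereas Cryab, a small heat shock protein of oligodendrocytes and astrocytes, had -0.51 ± 0.14 (adjusted p = 0.0737). No heat shock gene passed the adjusted threshold.

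Few chromatin genes were called. Sirt2, a deacetylase that is abundant in oligodendrocytes, fell by 0.31 ± 0.06 (adjusted p = 0.0183) and was the only called gene among 28 histone acetylation genes. Of 46 histone methylation genes 13 were higher and 1 was lower at the nominal threshold, against 9.33% and 8.98% of all genes, with a median of 0.07 that became 0.04 after centring on genes of like exonic length. Suv39h1, which methylates histone H3 in heterochromatin, had -0.21 ± 0.07 (adjusted p = 0.105). Of 34 chromatin remodelers 8 were higher and 1 was lower, and their median of 0.05 became 0.01 after the same centring, with Chd9 at 0.23 ± 0.06 (adjusted p = 0.0737). The histone methylation and remodeler lists were of high expression (medians 5.76 and 6.09 log2 CPM). Between 5 and 7 log2 CPM 17.8% of all genes were higher at the nominal threshold. Among 17 DNA methylation genes 1 was higher and 2 were lower, and Dnmt3a, which sets new methyl marks, had -0.06 ± 0.05 (adjusted p = 0.628). Cytosolic ribosomal protein genes had 80 of 86 members below 0 and 23 lower at the nominal threshold, against 8.98% of all genes. These were small amounts, with a median of -0.10. Some of these genes have near-identical pseudogene copies, so that their counts are uncertain. Nuclear genes of oxidative phosphorylation had a median of 0.01, with 7 of 85 higher and 1 lower at the nominal threshold, against 9.33% and 8.98% of all genes.

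Fold changes varied with the level and the length of genes. Above 7 log2 CPM 33.0% of 1571 genes were higher and 5.22% were lower at the nominal threshold. Between 1 and 3 log2 CPM 4.58% of 3492 genes were higher and 11.7% were lower. Among 12662 protein-coding genes of at least 1 log2 CPM, the median log2 fold change was -0.03 in the shortest of 5 groups by exonic length and 0.06 in the longest. In the dHPC of hMet males the same groups had 0.06 and -0.06, the other way round, and in WT males of the vHPC they had -0.01 and 0.02. Genes do not vary independently, so the Spearman correlation of exonic length with log2 fold change is given as a description only, and it was 0.219 in hMet males of the vHPC and -0.316 in their dHPC. Within these protein-coding genes the median exonic length was 6670.5 bases for 52 that rose and 4032 bases for 71 that fell, against 4756 bases for all 12662 genes.

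**Figure D4:**
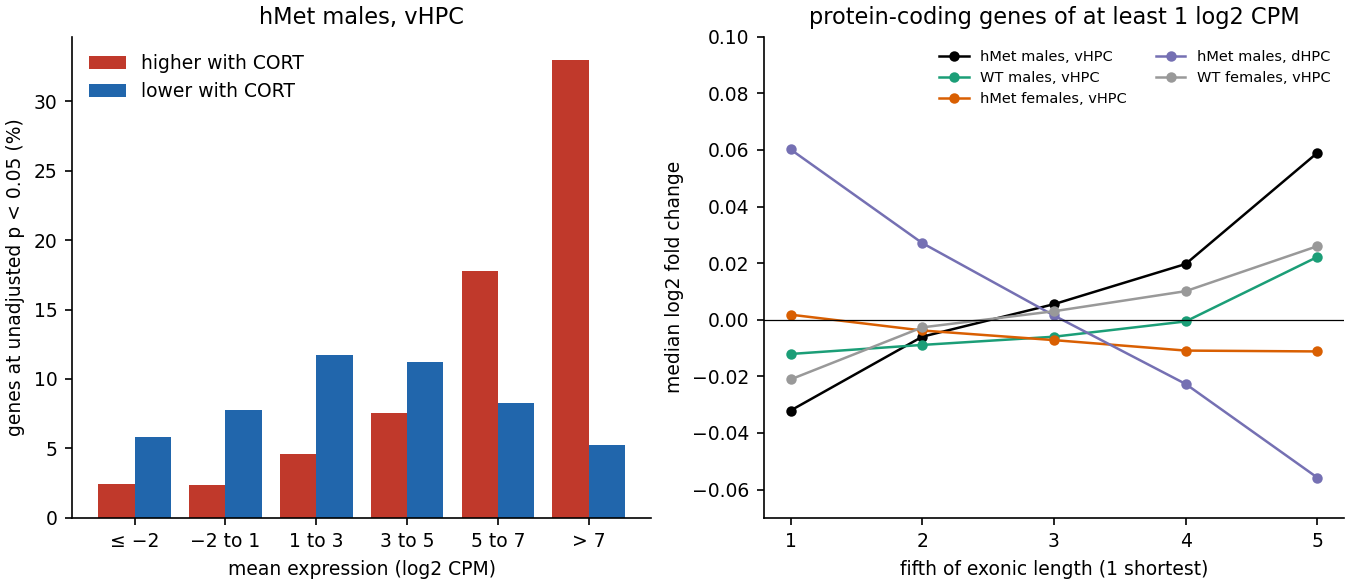
Left, share of genes at the nominal threshold (vertical axis, percent) that were higher (red) or lower (blue) with CORT in hMet males of the vHPC, by mean expression in log2 CPM. Right, median log2 fold change by exonic length, in 5 equal groups, in 5 comparisons: the line of hMet males climbs with length in the vHPC, to 0.06, and descends in the dHPC, to -0.06.

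The genes called in hMet males were then read in the other groups, whose libraries were not among those compared in hMet males of the vHPC. Libraries of the other vHPC groups entered the estimate of spread behind the call. Whether they also bear on the fold change is unknown, as the fit may hold a further term. In WT males of the vHPC 135 of the 139 genes had the same direction and 93 had it at the nominal threshold: 41 of the 55 that rose, against 3.43% of all genes, and 52 of the 84 that fell, against 3.81% of all genes. The median of the genes that rose was 0.31 in hMet males and 0.19 in WT males, and that of the genes that fell was -0.54 in hMet males and -0.29 in WT males. Since genes were chosen by their size in hMet males, a smaller value elsewhere can come from the choice alone. In the dHPC of hMet males 133 of 139 had the same direction and 52 had it at the nominal threshold, 19 of those that rose (2.94% of all genes) and 33 of those that fell (3.4% of all genes). Whether these libraries came from the same animals as those of the vHPC is not in the labels. In hMet females of the vHPC 72 of 139 had the same direction, with 3 of those that rose (3.18% of all genes) and 4 of those that fell (2.48% of all genes) at the nominal threshold. Their medians were -0.03 for the genes that rose in males and -0.02 for those that fell. In WT females of the vHPC 111 of 139 had the same direction and 9 had it at the nominal threshold, 5 of those that rose (1.52% of all genes) and 4 of those that fell (1.66% of all genes). The 4 vHPC comparisons share one estimate of spread for each gene.

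**Figure D5:**
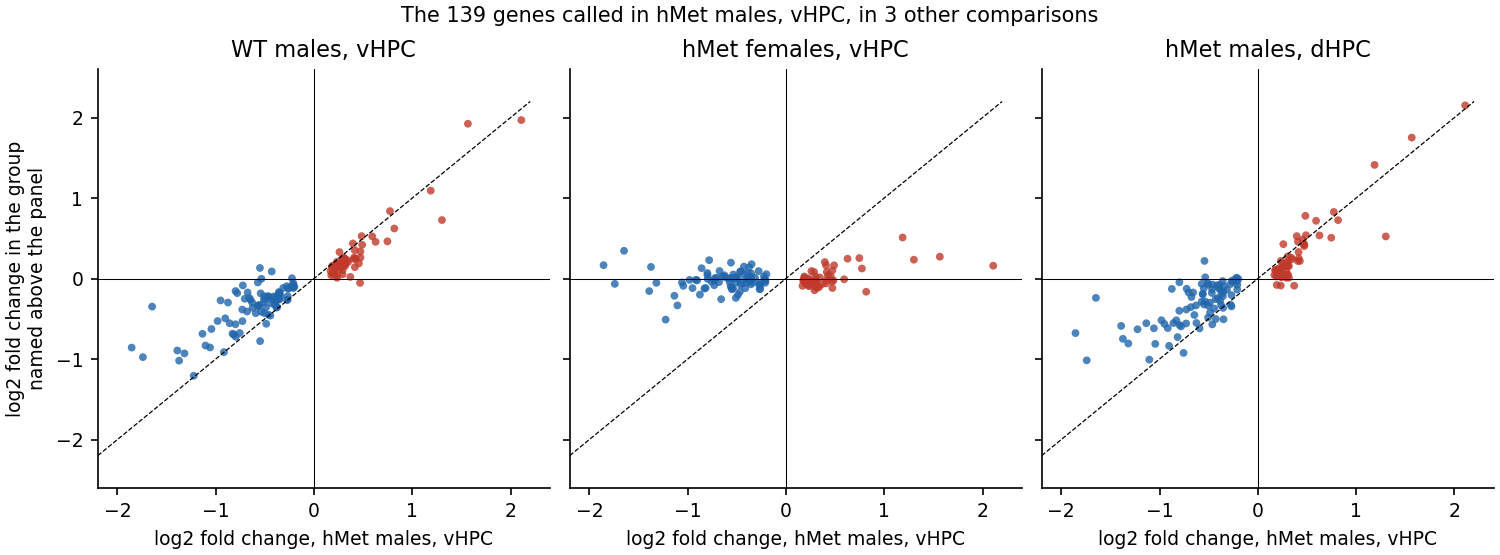
Log2 fold change of CORT over vehicle of the 139 called genes in hMet males of the vHPC (horizontal axis) against that in WT males of the vHPC, hMet females of the vHPC and hMet males of the dHPC (vertical axis, left to right), with the line of equal values dashed. Red genes rose and blue genes fell in hMet males of the vHPC, and 135, 72 and 133 of the 139 had the same direction in the 3 panels.

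The difference between responses was tested gene by gene. Against hMet females, 0 of 21088 genes (0.0%) differed at an adjusted p under 0.05, while 3285 genes (15.6%) did at the nominal threshold, 1709 of them with the higher log2 fold change in hMet males. The smallest p belonged to Spink8, with log2 fold changes of 0.82 in hMet males and -0.16 in hMet females, a difference of 0.98 ± 0.18 (adjusted p = 0.115). Tfrc had 0.47 in hMet males and -0.12 in hMet females (difference 0.59 ± 0.11, adjusted p = 0.115). Exoc6b and Anks1b followed with differences of 0.34 and 0.27, and C1ql1, a complement-like protein of oligodendrocyte precursors, had -0.34 in hMet males and 0.24 in hMet females (difference -0.57 ± 0.12, adjusted p = 0.188). Of the 22 microglial genes 10 were lower in hMet males than in hMet females by this test at the nominal threshold and 0 were higher. Their list median was -0.54 in hMet males and -0.07 in hMet females. Of 25 cholesterol genes 14 were higher in hMet males by this test and 1 was lower, with medians of 0.09 in hMet males and -0.05 in hMet females.

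Against WT males, 0 of 21088 genes (0.0%) differed at the adjusted threshold, with a smallest adjusted p of 1.0, and 692 genes (3.28%) differed at the nominal threshold. Cep164, a protein of the centriole, had -0.18 in hMet males and 0.17 in WT males, and Rpa2, which binds single-stranded DNA, had -0.24 in hMet males and 0.15 in WT males. Zfp408 had 0.05 in hMet males and -0.18 in WT males. Stard4 had 0.26 in hMet males and -0.07 in WT males, and Nsdhl had 0.14 in hMet males and -0.13 in WT males. These sterol genes belonged to 12 of 25 members of the cholesterol list that were higher in hMet males than in WT males by this test at the nominal threshold, with none lower, and the list median was 0.09 in hMet males and -0.03 in WT males. The cholesterol list held 5 of 25 members higher at the nominal threshold in the dHPC of hMet males, where its median was 0.11. For microglia, 0 of 22 members differed between hMet and WT males at the nominal threshold, although the medians were -0.54 and -0.30. Standard errors in WT males were larger than in hMet males, by a median ratio of 1.09.

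Against the dHPC of hMet males, 0 of 18257 genes (0.0%) differed at the adjusted threshold and 843 (4.62%) did at the nominal threshold, with a smallest adjusted p of 0.84. Arfgap3, which acts on coats of Golgi vesicles, had -0.17 in the vHPC and 0.19 in the dHPC. Csmd2, a synaptic membrane protein, had 0.10 in the vHPC and -0.46 in the dHPC, while Syndig1l had -0.29 in the vHPC and 0.89 in the dHPC. Zcchc12 had -0.26 in the vHPC and 0.68 in the dHPC, and Ythdc2, an RNA helicase, had 0.15 in the vHPC and -0.24 in the dHPC. The median of myelin genes was -0.46 in the vHPC, against 0.02 in the dHPC with 2 of them higher at the nominal threshold, and 4 of 26 differed between regions at the nominal threshold. In the other vHPC groups this median was -0.13 in WT males, -0.21 in hMet females and -0.29 in WT females. At the nominal threshold 0 myelin genes differed between hMet and WT males of the vHPC, and 1 differed between hMet males and hMet females. The metallothioneins had a median of 0.17 in the vHPC and 0.55 in the dHPC. Standard errors in the dHPC were larger by a median ratio of 1.55.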

How the data were processed

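Hippocampal RNA was sequenced in 64 libraries, 4 per group by the labels, and the response of hMet males in the vHPC was taken from the table of that comparison. The authors aligned reads to mm10 with STAR, counted them with featureCounts and fitted limma-voom, in versions not given in the sources used here. The deposited mean expression, fold change and unmoderated standard error are log2 values. Deposited moderated t statistics, a score, come from limma as well. The deposited p-value and its Benjamini-Hochberg adjustment are the authors' own, and the tables also give the degrees of freedom. These columns of the authors' comparisons are the only values in the tables and were used for that reason. Depth per library was not analysed here.

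The moderated SE is the log2 fold change over t. For hMet males of the vHPC, p-values recomputed from t differed from those deposited by a relative 8.28e-13 or less. Differences between responses were divided by the root of their summed squared moderated SE, read against the smaller total degrees of freedom, and their p adjusted over every gene by Benjamini-Hochberg. The code for calls and differences was tested on simulated data with known changes, which checks the code and not the calls made here. Genes were named by rule: the 15 of smallest p in each direction with an adjusted p under 0.05 and at least 1 log2 CPM, called members of each of 40 gene lists (up to 5, otherwise the 2 of smallest p) with the first 2 of each list, and the 5 of smallest p in each difference, predicted genes left out. The members and lists were chosen with earlier results of these data known. The gene annotation was GENCODE for GRCm38 (21064 of 21088 genes matched), promoters came from RefSeq. Alternatives were filters, adjustments, unmoderated errors and centrings. Software was scipy 1.17.1, pandas 2.3.3, numpy 2.4.6 and matplotlib 3.10.9 under Python 3.11.15. Results for some genes covered by these rules are not reported here.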

Additional observations from a re-analysis of the deposited data

How the results depend on the processing

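The adjusted count of 139 genes in hMet males became 5 with Holm's adjustment (Heph, Etnppl, Spink8, Dbp and S100a6), 84 with a fold change over 1.3 added and 60 with unmoderated standard errors, 57 of them among the 139. It became 197 when adjusted over genes of at least 1 log2 CPM, 137 after centring on the median and 131 after centring by exonic length, chosen after seeing the data, with 106 genes shared. The 1047 DEGs became 436 among genes of at least 1 log2 CPM, 493 at p under 0.01, 560 at a fold change over 1.5 and 3861 with no fold filter. Each of the 3 differences stayed at 0 genes under every alternative run. The 30 leading genes kept their call with unmoderated errors (adjusted p at most 0.0422), and 28 of 30 kept it after centring by exonic length. All 40 list medians moved by less than their members' median SE under both alternatives. That SE belongs to single genes, so a small median could still change much or change sign. The median of chromatin remodelers went from 0.05 to 0.01 after centring by exonic length. Among members of at least 1 log2 CPM, the DNA methylation median went from -0.02 to 0.03. That of neurotrophins and their receptors went from 0.11 to 0.19. No paired analysis was possible because the tables hold no values per library, and leaving out each replicate could not be run for the same reason. How much 1 library bears on any value is therefore unknown.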

Other observations

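Genes at p under 0.05 in hMet males of the vHPC were spread over the chromosomes, from 15.1% of genes on chromosome 16 to 21.1% on chromosome X, and chromosome 2, which holds Bdnf, had 19.3%. Of the 84 genes that fell 79 were protein-coding (94.0%) and of the 55 that rose 54 were (98.2%), against 74.5% of all genes in the table. Plin4 stood at 1.88 in WT males and 2.42 in the dHPC of hMet males. Among serotonin receptors Htr4 had 0.47 ± 0.16 (adjusted p = 0.135), and the 12 members had a median of 0.12. Sv2b, a synaptic vesicle protein, had 0.22 ± 0.05 (adjusted p = 0.052), while Stx1a, of the fusion complex, had -0.47 ± 0.15 (adjusted p = 0.0988). The unfolded protein response list had 0 of 22 members higher and 1 lower at p under 0.05, and the 13 mitochondrially encoded genes had none. Of the 27 interferon genes 16 averaged at least 1 log2 CPM. Lists of glycolysis (median 0.07), splicing factors (0.02), Notch and Hes genes (-0.02), iron handling (-0.05) and fatty acid genes (0.0029) had medians within 0.10 of 0.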
